A study of Rattus norvegicus with 6 samples.

Results

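The genes described are the interleukins and interleukin receptors outside the main IL-1 and IL-6 groups, in young and aged rat donor hearts after transplantation. They were taken by symbol from the deposited expression table as every name that begins with Il and a number, without the names that begin with Il1r, Il18 or Il6 and without Il1a, Il1b, Il33 and Il11. This gave 61 of the 22250 genes of the table, 31 genes for ligands, 29 for receptor chains and 1 for an enzyme, Il4i1. A choice by symbol keeps some relatives of the excluded groups, namely Il36a, Il36b, Il36g, Il36rn and Il1f10 of the IL-1 family and Il11ra1, Il27ra and Il31ra of the IL-6 receptor family. Left ventricular myocardium had been collected on day 1 after heterotopic heart transplantation from wild-type Sprague-Dawley donors, 3 young hearts (10 weeks; numbered 3, 13 and 15 in the labels) and 3 aged hearts (1 year; numbered 3, 4 and 7). All 6 hearts had been stored cold before transplantation into young recipients, and no untransplanted heart is among these libraries. Young heart 3 and aged heart 3 are different hearts. The tissue was whole myocardium with the blood cells in it, so reads from donor cells and from recipient cells in the graft cannot be told apart, nor can more cells of a type and more RNA per cell.

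Interleukins are secreted proteins by which leukocytes and tissue cells signal to each other, and most of them act through receptors built from 2 different chains. Several chains are shared: the common gamma chain, encoded by Il2rg, serves IL-2, IL-4, IL-7, IL-9, IL-15 and IL-21, IL-10 and its relatives share Il10rb or Il20rb, and IL-17 cytokines share Il17ra. Most of these receptors act through JAK kinases and STAT factors, whereas IL-17 receptors act through the adaptor Act1, encoded by Traf3ip2. In an injured or transplanted heart, receptor genes of this kind are known mainly from infiltrating neutrophils, macrophages and lymphocytes, and some of them also from endothelial cells and fibroblasts.

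The reads counted on genes numbered 21457509 to 24560869 per heart, and TMM normalization turned them into CPM, a gene's count relative to the effective size of its library. At this depth 3 reads, the smallest number taken here as a signal, were worth 0.0985 to 0.191 CPM. The libraries were uneven within groups, and young heart 15 stood apart from young hearts 3 and 13 in most values that follow. The summed CPM of 10 cardiomyocyte markers was 101000 and 111000 in young hearts 3 and 13, but 13400 in young heart 15. It was 8270 and 7520 in aged hearts 4 and 7 and 618 in aged heart 3, which was labelled left ventricular myocardium like the others. The mitochondrial genome took 21.7%, 21.7% and 11.9% of the counts in young hearts 3, 13 and 15 and 6.56%, 7.99% and 10.3% in aged hearts 3, 4 and 7, so this share was lower in every aged heart, and its part in the differences was not tested. Counts that rest on young heart 15 or aged heart 3 are therefore given with and without them.

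Most of the abundant members were receptor genes. In deposited FPKM, read counts set against gene length and against all reads counted, 9 of the 10 members with the highest mean over the 6 hearts were receptor chains. They were Il4r at 75.4, Il17ra at 49.2, Il13ra1 at 28.6, Il11ra1 at 28.3, Il10rb at 26.7, Il2rg at 19.3, Il3ra at 13.2, Il10ra at 11.9 and Il17rc at 11.3 FPKM. Il15, which supports T cells and NK cells, was the ligand among them, at 13 FPKM. The range of each of these 10 overlapped that of its neighbour in this order, and the order is that of the means over the 6 hearts. It differed between the groups. In young hearts Il11ra1 had the highest mean (35.2 FPKM, against 25.6 FPKM for Il4r). In aged hearts Il4r had the highest mean (125 FPKM, against 21.5 FPKM for Il11ra1). Of the ligand genes, 8 had 0 reads in every heart: Il2, Il5, Il9, Il17a, Il22, Il36a, Il36g and Il1f10. Among the receptor genes 1, Il5ra, had 0 reads in every heart. A count of 0 allows up to 0.191 CPM in the library with the least effective depth, counting error alone considered. The T helper cytokine genes Il4 and Il13 had 1 read and 2 reads in all 6 hearts together. Transcripts of the ligands of Il4r, the receptor with the highest mean over the 6 hearts, were thus close to the limit of detection.

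**Figure D1:**
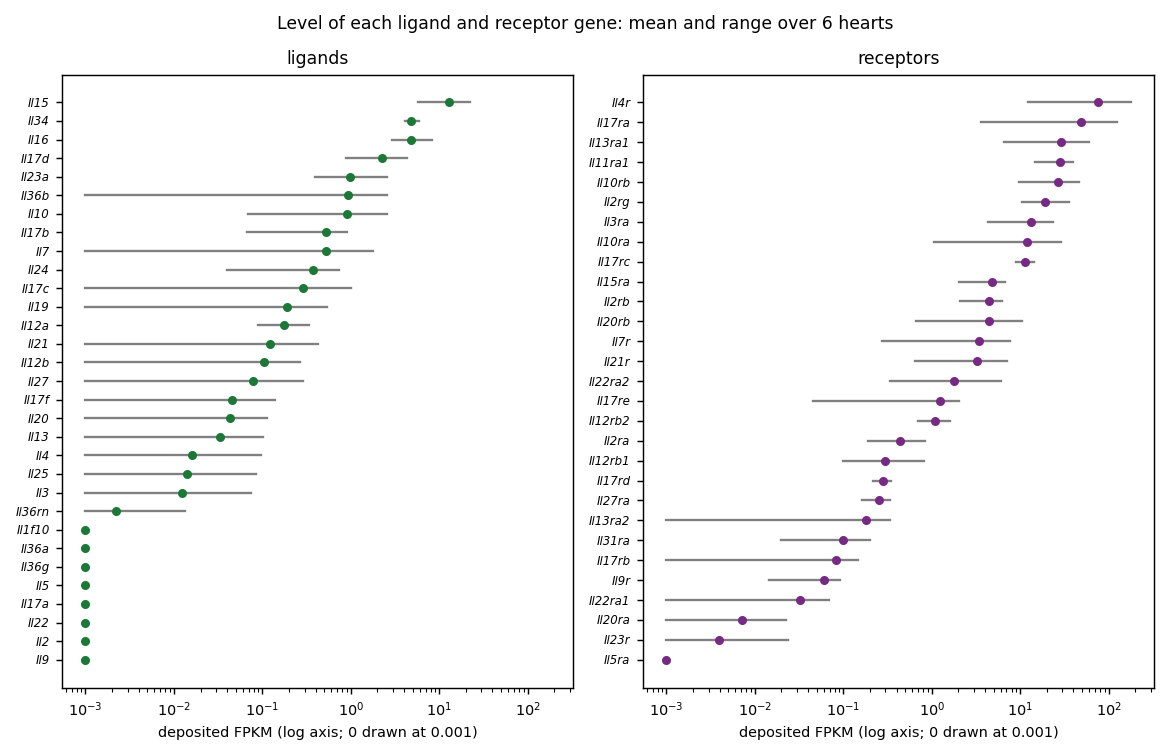
Deposited FPKM of each ligand gene (left) and receptor gene (right) on a log axis, with the mean over the 6 hearts as a point and the lowest and highest heart as the ends of the line, and 0 drawn at 0.001. Il15 leads the ligands at 13 FPKM, while 9 receptor genes have a mean above 11 FPKM.

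The effect of donor age was tested with the quasi-likelihood test of edgeR in the 13784 genes left by its low-count filter. A gene was called where its fold change was above 1.5 or below 0.67 with an unadjusted p under 0.05, the limits that the study sets for its RNA-Seq. Of the 61 members 34 passed the filter, and 11 of these were called higher in aged donor hearts (32.4%, against 13.2% of all genes tested) and 5 lower (14.7%, against 19.0%). The 11 were Il4r, Il13ra1, Il7r, Il21r, Il10, Il10ra, Il10rb, Il20rb, Il22ra2, Il3ra and Il17ra, and 10 of them encode receptor chains. The 5 were Il15, Il2rb, Il12rb2, Il17d and Il11ra1. The median log2 fold change of the 34 was 0.66, against 0.02 over all genes tested. Every aged heart lay above every young heart in 12 of the 34 (35.3%, against 21.0% of all genes tested) and below in 5 (against 20.6%). Il10 and Il24 reached the level of the filter in aged hearts alone, so that a pass and a high value in aged hearts are not separate facts for them. Without them 10 of 32 were called higher.

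In edgeR, 0 of 34 members had a Benjamini-Hochberg adjusted p under 0.05 (smallest 0.0916). The same held for all genes tested, with 0 of 13784 passing. At an unadjusted p under 0.05 there were 16 of the 34 members and 4731 of the 13784 genes tested. DESeq2's Wald test gave 15 members with an adjusted p under 0.05 (44.1%, against 26.1% of all genes). limma-voom with quality weights gave 22 (64.7%, against 61.1% of all genes), a share near that of all genes. Without young heart 15, edgeR gave 18 such members (52.9%, against 48.3% of all genes tested). It then called 15 of 34 higher (44.1%, against 26.9%) and 7 lower (20.6%, against 24.2%). Without aged heart 3 it gave 0 (0% of all genes tested). It then called 9 of 34 higher (26.5%, against 7.47% of all genes tested) and 5 lower (14.7%, against 14.7%). At an unadjusted p under 0.05, 14 members passed there, and the number of all genes that did was not counted. Of the 16 called members, 12 were called in all 6 fits that each left out a heart. With 3 hearts against 3, the smallest p of a two-sided exact permutation test is 0.1, which was the value for 15 of the 16 called members. Il2rb, whose groups overlapped, had p = 0.2 in that exact permutation test.

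**Figure D2:**
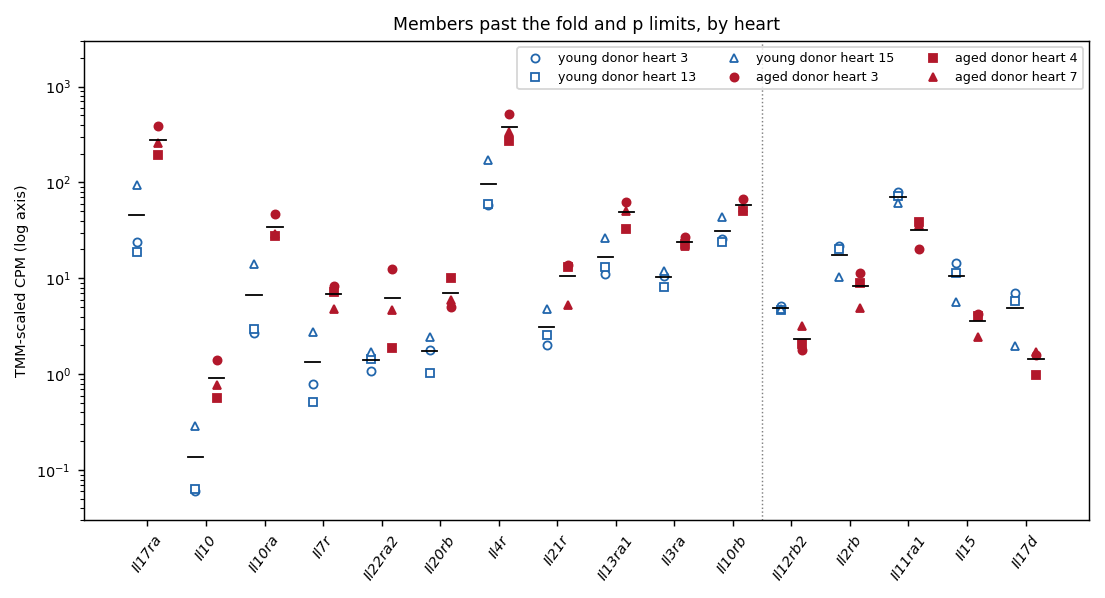
CPM of the 16 called members in each heart on a log axis, with young donor hearts as open blue symbols, aged donor hearts as filled red symbols and group means as bars. Members higher in aged hearts stand left of the dotted line, and young heart 15 (open triangle) lies nearest to the aged hearts in all 11.

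The upstream sequence of the 3 most abundant called-higher members and of the most abundant called-lower member with an entry in the RefSeq table is shown so that abundant members of both directions can be compared. Each is the 250 bases before the gene's start in build GRCr8, 5′ to 3′, and capitals mark GGGCGG or its reverse complement, the GC box to which the study's factor SP1 binds.
Il4r, chr1:189545525-189545774 on the plus strand: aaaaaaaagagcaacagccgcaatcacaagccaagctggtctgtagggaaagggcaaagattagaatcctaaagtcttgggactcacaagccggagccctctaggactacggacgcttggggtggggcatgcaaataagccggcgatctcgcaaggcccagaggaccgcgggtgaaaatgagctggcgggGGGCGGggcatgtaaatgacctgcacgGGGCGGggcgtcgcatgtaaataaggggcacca
Il13ra1, chrX:120214355-120214604 on the plus strand: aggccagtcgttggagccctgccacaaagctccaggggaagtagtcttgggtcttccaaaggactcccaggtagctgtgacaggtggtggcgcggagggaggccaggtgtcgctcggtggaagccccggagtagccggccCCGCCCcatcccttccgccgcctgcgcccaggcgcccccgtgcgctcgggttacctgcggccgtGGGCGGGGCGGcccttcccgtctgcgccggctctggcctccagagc
Il10rb, chr11:44132386-44132635 on the plus strand: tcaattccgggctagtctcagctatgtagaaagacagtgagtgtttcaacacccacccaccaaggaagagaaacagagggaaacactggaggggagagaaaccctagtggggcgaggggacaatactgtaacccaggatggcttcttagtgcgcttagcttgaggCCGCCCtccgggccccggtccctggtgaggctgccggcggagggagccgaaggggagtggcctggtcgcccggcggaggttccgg
Il15, chr19:42544456-42544705 on the plus strand: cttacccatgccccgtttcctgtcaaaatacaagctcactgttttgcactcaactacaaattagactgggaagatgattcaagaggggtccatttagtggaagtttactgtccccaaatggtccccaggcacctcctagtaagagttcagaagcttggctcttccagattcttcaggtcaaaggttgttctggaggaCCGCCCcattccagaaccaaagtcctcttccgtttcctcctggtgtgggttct

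Il4r had 2 GC boxes, Il13ra1 3, of which a pair shares 1 base, Il10rb 1 and Il15 1. Entries matched 46 of the 61 members by symbol. A GC box was present in 7 of the 8 upstream windows of called-higher members, namely those of Il4r, Il13ra1, Il21r, Il10rb, Il10ra, Il20rb and Il3ra, and absent from that of Il7r. It was present in 1 of 4 windows of called-lower members and in 4 of 18 windows of tested members that were not called. Of all 33469 windows 30.5% held it, and 55.7% of the 11728 windows of genes tested here. The STAT-type motif TTCNNNGAA, the AP-1-type motif TGANTCA and the PU.1-type motif GAGGAAGT, searched on both strands, were each found in 0 of the 8 called-higher windows. They were in 1, 1 and 0 of the 4 called-lower windows and in 2, 2 and 1 of the 18 windows not called. Of the windows of genes tested 5.96%, 4.56% and 2.23% held them, and of all windows 7.67%, 6.34% and 2.04%. A match is a description of the letters in this window, and the start site in use in these hearts was not measured.

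IL-4 and IL-13 share the receptor chain IL-4R alpha, and Il4r was the member with the most reads. It was at 58.3, 60 and 170 CPM in young hearts 3, 13 and 15 and at 518, 273 and 333 CPM in aged hearts 3, 4 and 7. The groups did not overlap, and young heart 15 lay between the other young hearts and the aged hearts. The log2 fold change was 1.96 (standard error 0.523, unadjusted p = 0.00844, adjusted p = 0.0916 in edgeR's quasi-likelihood test). Il13ra1, which pairs with IL-4R alpha to bind IL-4 or IL-13, was at 11.0, 13 and 26.5 CPM in young hearts and at 61.8, 33.0 and 50.8 CPM in aged hearts. Every aged heart was again above every young heart. The log2 fold change was 1.53 (standard error 0.410, unadjusted p = 0.00876 in edgeR). Il13ra2, a decoy receptor for IL-13, had 0 to 20 reads per heart and was not called.

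Il2rg, the common gamma chain, was not called, while some of its partner chains were. It was at 40, 51.6 and 47.4 CPM in young hearts and at 84.6, 52.7 and 49.4 CPM in aged hearts, so the groups overlapped (log2 fold change 0.43, standard error 0.256, unadjusted p = 0.144 in edgeR). With library totals alone as the scaling it was called higher (log2 fold change 0.88, unadjusted p = 0.0349 in edgeR), where the median of all genes was 0.46. Il21r, the private chain for IL-21, was at 2, 2.54 and 4.83 CPM in young hearts and at 13.7, 13.2 and 5.25 CPM in aged hearts. Aged heart 7 exceeded young heart 15 only narrowly, and the log2 fold change was 1.77 (standard error 0.511, unadjusted p = 0.0122 in edgeR). Il7r, the IL-7 receptor that lymphocytes need to survive, rose from 0.786, 0.509 and 2.77 to 8.41, 7.17 and 4.79 CPM. Its log2 fold change was 2.29 (standard error 0.663), and the table places it on the unplaced scaffold KL567908.1, so reads shared with another copy were not examined. The ligand Il7 had 0 to 48 reads per heart and was not called, and Il21 had 7 reads in all hearts together.

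The chains for IL-2 and IL-15 took the other direction or did not pass. Il15 was at 14.3, 11.5 and 5.66 CPM in young hearts and at 4.27, 4.02 and 2.45 CPM in aged hearts. Every aged heart was below every young heart. The log2 fold change was -1.55 (standard error 0.423, unadjusted p = 0.00959 in edgeR). Il2rb, the signalling chain for both cytokines, was at 22.0, 20.2 and 10.3 CPM in young hearts and at 11.4, 8.87 and 4.94 CPM in aged hearts. Young heart 15 lay below aged heart 3, and the log2 fold change was -1.06 (standard error 0.421, unadjusted p = 0.0436 in edgeR). That call was lost in 4 of the 6 fits that each left out 1 heart, those without young heart 3, young heart 13, aged heart 4 or aged heart 7. It was also lost with library totals alone (log2 fold change -0.52). For Il15ra, which presents IL-15 to neighbouring cells, the log2 fold change was -0.74 (standard error 0.559), with young hearts 3 and 13 at 18.4 and 18.9 CPM and young heart 15 at 4.01 CPM, below all aged hearts. Il2ra, the chain that raises affinity for IL-2, was at 0.578 to 3.63 CPM and was not called. Il9r, the receptor for IL-9, had 2 to 12 reads per heart and was not called.

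In the IL-10 family, whose founding member restrains macrophages, 6 of 11 members were tested. Of these, 5 were called higher (83.3%, against 13.2% of all genes tested). The tested members include Il10 and Il24, which reached the level of the filter in aged hearts alone. Il10ra, the chain private to IL-10, was at 2.72, 2.99 and 14.2 CPM in young hearts and at 46.8, 27.4 and 28.7 CPM in aged hearts. The groups did not overlap, and the log2 fold change was 2.35 (standard error 0.708, unadjusted p = 0.0144, adjusted p = 0.0953 in edgeR). Il10rb, which IL-10 shares with IL-22 and other cytokines, rose less, from 25.5, 24.2 and 43.4 to 67.2, 50.8 and 54.7 CPM (log2 fold change 0.89, standard error 0.276). Its call was lost without young heart 3, without young heart 13 and without aged heart 3. The ligand Il10 rested on few reads, 1, 1 and 7 in young hearts and 43, 15 and 20 in aged hearts. It was the ligand gene called higher, and its log2 fold change of 2.58 (standard error 0.728) rests on those few young reads.

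Other chains of the same family rose from low levels. Il20rb, shared by IL-19, IL-20 and IL-24, was at 1.81, 1.02 and 2.44 CPM in young hearts and at 5.02, 10.2 and 6.02 CPM in aged hearts. Every aged heart held more than every young heart (log2 fold change 2, standard error 0.452, unadjusted p = 0.00381 in edgeR). Its partner chain Il20ra had 2 reads in all hearts together. Il22ra2, a soluble protein that binds and blocks IL-22, was at 1.09, 1.46 and 1.69 CPM in young hearts and at 12.4, 1.90 and 4.64 CPM in aged hearts. Aged heart 3 was far above aged heart 4, and the call (log2 fold change 2.15, standard error 0.700) was lost without aged heart 3, where the value was 1.21, and without young heart 3 or young heart 13. Among the ligands, Il24 had 1 to 19 reads per heart and was not called, while Il19 had 0 to 7 reads, Il20 0 to 3 and Il22 0. The receptor chain Il22ra1, through which IL-22 signals, had 0 to 9 reads and was not tested.

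IL-17 receptors diverged by chain. Il17ra, the chain common to the IL-17 cytokines, was at 23.7, 18.9 and 93.5 CPM in young hearts and at 388, 195 and 258 CPM in aged hearts. The groups did not overlap, although young heart 15 was well above the other young hearts, and the log2 fold change was 2.63 (standard error 0.693, unadjusted p = 0.00808, adjusted p = 0.0916 in edgeR). Il17rc, its partner for IL-17A and IL-17F, was at 28.4, 28.9 and 31.1 CPM in young hearts and at 22.4, 26.2 and 21.6 CPM in aged hearts. Every aged heart was below every young heart on this scale, but the log2 fold change of -0.33 (standard error 0.164, unadjusted p = 0.0882 in edgeR) did not reach the limits. With library totals alone the log2 fold change of Il17rc was 0.1 (unadjusted p = 0.705 in edgeR), where the median of all genes was 0.46. Il17re, the IL-17C receptor chain, was at 0.726 and 0.191 CPM in young hearts 3 and 13 but at 5.70 CPM in young heart 15, above all aged hearts (3.94 to 5.04 CPM). Il17rd, a receptor-like regulator, had 16 to 24 reads per heart and was not called, and Il17rb, which binds IL-25, had 0 to 11 reads and was not tested.

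The IL-17 ligands were low throughout. Il17d, which has been found in skeletal and heart muscle, was at 7.02, 5.79 and 1.98 CPM in young hearts and at 1.58, 0.986 and 1.72 CPM in aged hearts. Every aged heart was below every young heart, with young heart 15 close to the aged hearts (log2 fold change -1.78, standard error 0.536, unadjusted p = 0.0147 in edgeR). That call was lost without young heart 3 and without aged heart 4. Il17b had 1 to 14 reads per heart and was not called. Il17a had 0 reads, Il17f 0 to 4, Il25 0 to 2 and Il17c 0 to 15 reads per heart, and none of these was tested.

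Il3ra encodes the private chain of the IL-3 receptor and varied little within groups. It was at 10.7, 8.20 and 12 CPM in young hearts and at 26.7, 22.8 and 21.9 CPM in aged hearts. Its log2 fold change of 1.21 had the smallest p of the members (standard error 0.222, unadjusted p = 0.00131, adjusted p = 0.0916 in edgeR), and the value ran from 1.07 to 1.37 across the 6 fits without 1 heart. The gene overlaps Asmtl by 70 bases on the other strand, and reads of such an overlap are uncertain because the strand setting of the counting is not stated. Il3 and Il5, the ligands of this family, had 1 read and 0 reads in all hearts together.

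In the IL-12 family 4 of 8 members were tested, and 0 were called higher, against 13.2% of all genes tested. Il12rb2, the signalling chain for IL-12 on T cells and NK cells, was at 5.14, 4.71 and 4.83 CPM in young hearts and at 1.81, 2.09 and 3.18 CPM in aged hearts. The groups did not overlap and the log2 fold change was -1.05 (standard error 0.314, unadjusted p = 0.0139 in edgeR), and young heart 15 stood with its group here. The call was lost with library totals alone (log2 fold change -0.61, unadjusted p = 0.135 in edgeR). Il12rb1, its partner, had 5 to 45 reads per heart and was not called. Its fold change on the log2 scale, 0.21 (standard error 0.833), was negative without young heart 3 and without aged heart 3. Il27ra, the receptor for IL-27, ran from 0.986 to 2.12 CPM and was not called. Il23a, the private subunit of IL-23, had 14 to 89 reads per heart and was not called. Il12a, Il12b and Il27 had at most 12 reads in any heart, and Il23r had 1 read in all, and none of these 4 was tested.

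Of the members outside these families, Il11ra1 changed. This gene, for the receptor of the IL-6 relative IL-11, was at 79.3, 72.0 and 61.6 CPM in young hearts and at 20.2, 38.7 and 35.9 CPM in aged hearts. The groups did not overlap, and aged heart 3 was the lowest (log2 fold change -1.17, standard error 0.280, unadjusted p = 0.00514 in edgeR). Without aged heart 3 the value was -0.92. Il16, a T cell chemoattractant, was at 22.1 ± 2.92 CPM in young hearts and at 23.7 ± 8.86 CPM in aged hearts (mean ± SD, n = 3 each). Il34, a ligand of the macrophage receptor encoded by Csf1r, was at 9.20 ± 1.27 and 7.69 ± 1.43 CPM (SD, n = 3 each), and Il4i1, an amino acid oxidase of myeloid cells, at 4.68 ± 0.505 and 5 ± 2.23 CPM (SD, n = 3 each). The groups overlapped in all 3. Il36b, an IL-1 family ligand, had 0, 0 and 10 reads in young hearts and 45, 18 and 22 in aged hearts, and was not called (unadjusted p = 0.0527 in edgeR). Il36rn had 1 read in all, and Il31ra, the receptor for IL-31, had 1 to 10 reads per heart; neither was tested.

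**Figure D3:**
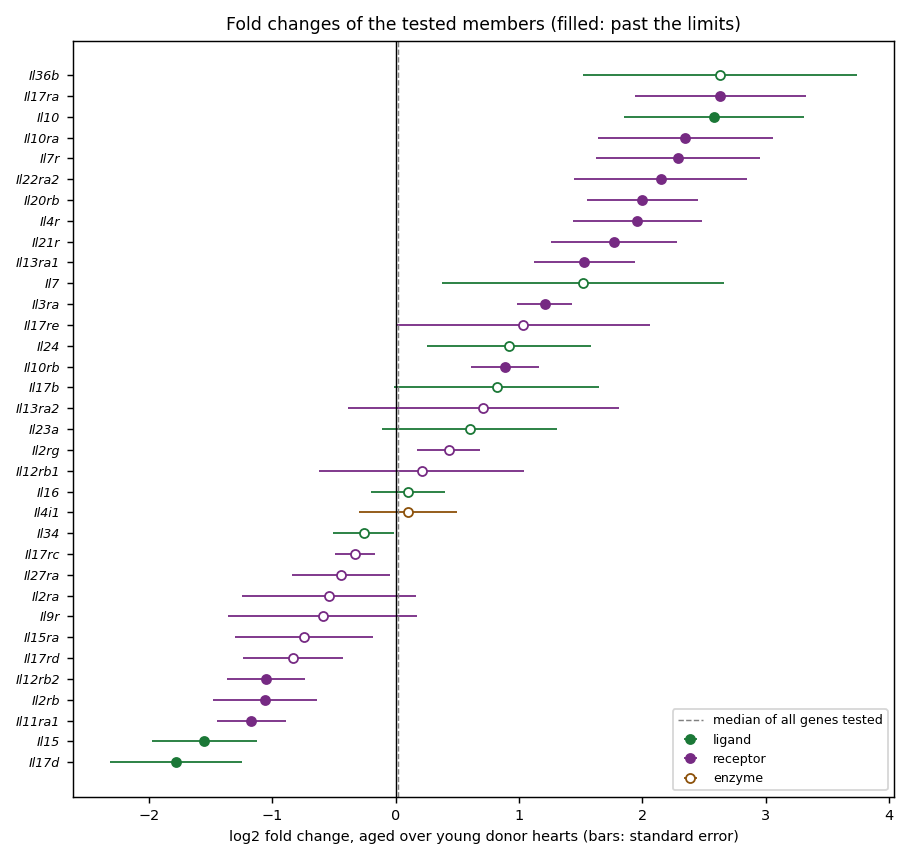
Log2 fold change of aged over young donor hearts for the 34 tested members, with standard errors as bars, ligands in green, receptors in purple and the enzyme in brown, and filled points for called members. The dashed line is the median of all genes tested, 0.02, and 10 of the 11 filled points on the positive side are receptor chains.

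Chains of the same receptor were then compared within each heart as a ratio of FPKM, which no scaling of libraries can alter. The 9 pairs were chosen after the values were seen. Il17ra over Il17rc was 0.507, 0.400 and 1.83 in young hearts and 10.5, 4.53 and 7.26 in aged hearts. Il4r over Il2rg was 1.2, 0.962 and 2.97 in young hearts and 5.07, 4.28 and 5.58 in aged hearts. Il10ra over Il10rb was 0.0969, 0.112 and 0.298 in young hearts and 0.631, 0.490 and 0.476 in aged hearts. In these 3 pairs the ratio was higher in every aged heart than in any young heart. The ratio of Il2rb to Il2rg went the other way, from 0.596, 0.424 and 0.236 to 0.146, 0.182 and 0.109. Il3ra over Csf2rb, the beta chain that IL-3 shares with IL-5 and GM-CSF, was 1.10, 1.98 and 0.398 in young hearts and 0.196, 0.276 and 0.264 in aged hearts. Thus Il3ra and Csf2rb were called higher together, but Csf2rb by more. Groups did not overlap in 8 of the 9 pairs, the exception being Il15ra over Il2rb. Each of the 8 had p = 0.1 in a two-sided exact permutation test (adjusted p = 0.1125 over the 9 pairs). Because the pairs were picked with the values known, the count of 8 and these p-values describe the pairs and test nothing. A ratio shows unequal change of its chains, and not which chain changed.

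**Figure D4:**
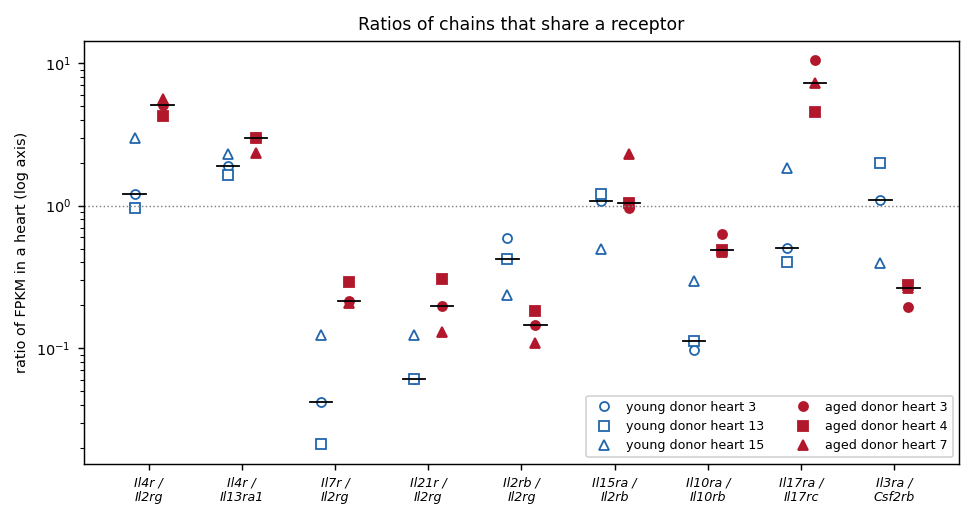
Ratio of deposited FPKM of 9 pairs of receptor chains in each heart on a log axis, with young donor hearts as open blue symbols, aged donor hearts as filled red symbols and bars at group medians. The median of Il17ra over Il17rc is 0.507 in young and 7.26 in aged donor hearts.

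Many members lie beside each other in the genome, some at similar and some at very different levels. On chromosome 1 of the files' build, Rnor_6.0, Il4r (196942364 to 196967220) and Il21r (196996581 to 197024166) are 29360 bases apart on the plus strand with 0 genes of the table between them, and both were called higher. On chromosome 13, Il24, Il20, Il19 and Il10 follow each other between 47618452 and 47743392, with 60, 7, 14 and 87 reads over the 6 hearts. Of these, Il10 was called. On chromosome 4, Il12rb2 had 469 reads and was called lower, whereas its neighbour Il23r, 62475 bases away, had 1 read. Il17re and Il17rc are 763 bases apart on chromosome 4, with 532 and 3615 reads. On chromosome 17, Il15ra and Il2ra are 17332 bases apart, with 1379 and 198 reads. On chromosome 10, Il4, Il13 and Il5 held 1, 2 and 0 reads. In the IL-36 cluster of chromosome 3, Il36b held 95 reads, while Il36g, Il36a, Il36rn and Il1f10 together held 1.

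Genes that work with these receptors but bear other names were listed by hand, 16 in all, and 15 were tested. Of the 15, 8 were called higher (53.3%, against 13.2% of all genes tested) and 0 lower. The receptor chains were Csf2rb, at 34.8 ± 32.4 CPM in young and 239 ± 73.0 CPM in aged hearts (SD, n = 3 each; log2 fold change 2.78), Csf2ra for GM-CSF (2.27), Osmr, which pairs with Il31ra (1.77), and Crlf2 for TSLP (1.69). The kinases were Jak2 (1.42), Jak3, which binds the common gamma chain (0.64), and Tyk2 (0.60). The ligand was Csf1, which shares a receptor with IL-34 (1.85). Jak1, the JAK kinase with the highest FPKM here, was at 287 ± 24.2 and 321 ± 32.9 CPM (SD, n = 3 each) and was not called. Not called either were Csf1r, Ebi3, Ifnlr1, Traf3ip2, Traf6 and Tslp, and Csf2 had 0 to 6 reads and was not tested. Without 1 heart the count ran from 1 to 10, and the share of all genes called higher moved too. The count was 1 without young heart 13 (6.13% of all genes tested) and without aged heart 3 (7.47%). It was 10 without young heart 15 (26.9%). The call of Csf2rb was kept in all 6 fits.

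The summed markers of neutrophils and of macrophages were higher in aged hearts beside the receptor genes, while other leukocyte lists were mixed or lower. All 10 neutrophil markers listed were tested and 8 were called higher, while 13.2% of all genes tested were called higher. Of the 8, Camp and Elane reached the level of the filter in aged hearts alone. A pass and a high value in aged hearts are not separate facts for these markers. The summed CPM of the 10 was 16.7, 16.7 and 145 in young hearts and 1360, 356 and 772 in aged hearts. For 10 macrophage markers, of which 9 were tested and 5 called higher, the sum was 309 to 2080 CPM in young and 3440 to 6580 CPM in aged hearts. Marco had 1 read at most. Lyz2 made up most of the sum in young heart 15 (1410 CPM) and in aged hearts 3, 4 and 7 (4750, 2700 and 2710 CPM). Lyz2 was not called (unadjusted p = 0.0669 in edgeR), and the groups overlapped in Cd68, Mrc1, C1qa and C1qb. Like Il4r, Il17ra and Il10ra, the neutrophil and macrophage sums were higher in young heart 15 than in the other young hearts and highest in aged heart 3. Their part in the rise of the receptor genes was not tested. T cell markers summed to 8.20 to 68.8 CPM in young and 89.9 to 131 CPM in aged hearts, and 2 of 7 tested, Cd2 and Lck, were called higher, while Cd3e and Cd3g, chains that define T cells, were tested and not called and Cd3d was not tested. Cd8a made up most of the T cell sum in young heart 15 (55.8 CPM) and in aged hearts 3, 4 and 7 (99, 88.3 and 63.8 CPM). It had 14 to 1350 reads in young and 1664 to 3013 reads in aged hearts and was not called (unadjusted p = 0.176 in edgeR). NK cell markers (5.82 to 14.2 CPM in young and 6.22 to 20.6 CPM in aged hearts) and B cell markers (1.07 to 3.43 and 1.21 to 7.39 CPM) overlapped between the groups.

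Other lists fell or stayed mixed beside the members that were lower. All 4 tested of 5 mast cell markers were called lower, with sums of 10.2 to 18.8 CPM in young and 2.69 to 4.75 CPM in aged hearts. Of the 4, Ms4a2 reached the level of the filter in young hearts alone. Its pass and its high value in young hearts are not separate facts. Of 10 cardiomyocyte markers 5 were called lower, with sums of 13400 to 111000 CPM in young and 618 to 8270 CPM in aged hearts. Fibroblast markers summed to 2520 to 3820 CPM in young and 938 to 2140 CPM in aged hearts, with 1 of 5 called lower. This was Col1a1, at 1920, 1580 and 2660 CPM in young and 763, 1030 and 217 CPM in aged hearts. The groups overlapped in Dcn, Lum, Tcf21 and Pdgfra, and the log2 fold change of Pdgfra was positive (0.81). Endothelial markers summed to 1190 to 1740 and 950 to 1440 CPM, with 1 of 7 called lower. Of all genes tested, 19.0% were called lower. Il15, Il17d, Il2rb and Il11ra1, like the cardiomyocyte sum, were lower in young heart 15 than in the other young hearts, whereas Il12rb2 was not. The aged hearts differed from this, as aged heart 3 had the lowest cardiomyocyte sum (618 CPM). Among aged hearts Il15 (4.27 CPM) and Il2rb (11.4 CPM) were highest in aged heart 3. Il11ra1 was lowest there (20.2 CPM), and Il17d (1.58 CPM) lay between the other aged hearts. The part of these lists in the lower members was not tested. Of the 3 eosinophil markers 0 were tested, with sums of 0.33 to 0.636 CPM in young and 0.493 to 1.45 CPM in aged hearts and Prg2 at 1 read at most.

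**Figure D5:**
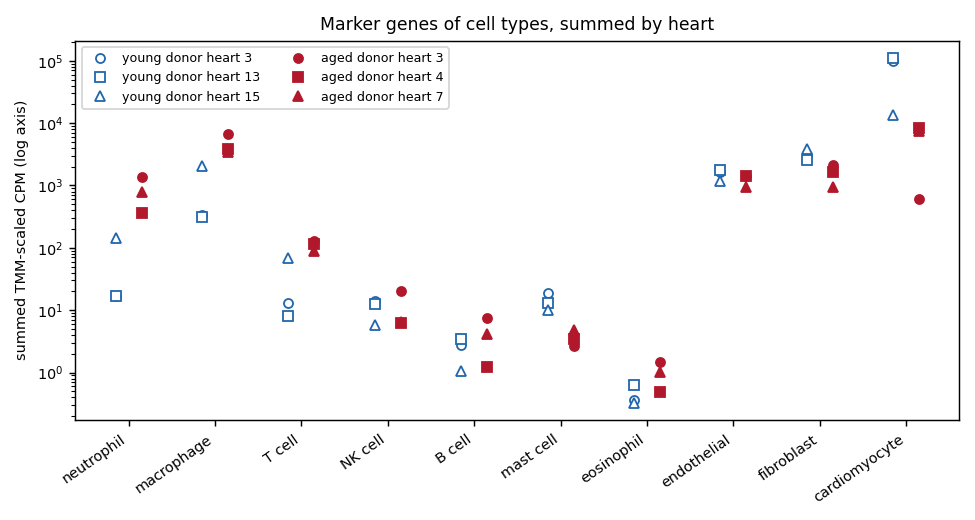
Summed CPM of the markers of 10 cell types in each heart on a log axis, with young donor hearts as open blue symbols and aged donor hearts as filled red symbols. The neutrophil sum runs from 16.7 to 145 CPM in young and from 356 to 1360 CPM in aged donor hearts, and the cardiomyocyte sum falls to 618 CPM in aged heart 3.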

How the data were processed

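RNA-Seq of polyadenylated RNA was analysed from 3 young and 3 aged donor hearts. The authors deposited 1 table with the raw read count of each gene in each heart, without normalization, and the FPKM, the count relative to the listed gene length and to all reads counted. Recomputed from the counts, 366 of 366 member FPKM values differed by at most 0.1%. The submitters' processing notes name HISAT2 2.0.5, StringTie 1.3.3b, featureCounts 1.5.0-p3 and the build Rnor_6.0. The strand setting is not given in the sources used here. FPKM carries no correction for composition, and the mitochondrial genome took a share of the counts that differed between the groups, so groups were compared on TMM-scaled counts and FPKM served for levels between genes.

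The analysis used edgeR 4.0.16 under R 4.3.3 (filterByExpr, TMM, glmQLFit and glmQLFTest, no covariates), limma 3.58.1 and DESeq2 1.42.0. Standard errors were obtained by dividing the log2 fold change by the root of the F statistic. P-values were adjusted over all genes tested (Benjamini-Hochberg). Permutation tests used log2 CPM with a prior count of 2. No pair of replicate libraries came within sampling noise, so all 6 were kept. The lowest chi-square per degree of freedom was 10.1, between young hearts 3 and 13. By this measure young heart 15 was nearer to aged hearts 4 and 7 (98.8 and 129) than to young hearts 3 and 13 (496 and 526). The scripts were tested on simulated data. Upstream sequences came from RefSeq (GRCr8), whose coordinates were not mixed with those of Rnor_6.0. Alternatives were other scalings, filters, tests and call limits, and leaving out each heart.

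The members and lists were chosen with earlier results of these data known. Named with values were the called members, the 10 with the highest FPKM, and their ligands or partner chains. Others are named for completeness, after their values were seen. Nothing in the labels shows batches.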

Additional observations from a re-analysis of the deposited data

How the results depend on the processing

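The count of members called higher was 11 and stayed between 9 and 15 when 1 heart was set aside at a time, while the count called lower was 5 and ran from 3 to 7. The shares of all genes moved with them, from 5.83% to 26.9% higher and from 11.5% to 24.2% lower. Both counts stayed within 1.5 times under the size factors and the Wald test of DESeq2, under other low-count filters and with fold limits of 2 and 0.5. With library totals alone, which moved the median of all genes to 0.46, 13 were higher and 3 lower (22.8% and 10.5% of all genes), and limma-voom with quality weights gave 15 and 8 (26.8% and 27.7%). Limits on the adjusted p left 0 members on either side and 0 partner genes, whose count of 8 ran from 1 to 10 without 1 heart. Setting aside members that reached the filter's level in 1 group, chosen after seeing the data, gave 10 higher. All 11 called-higher members were also called higher with DESeq2's size factors, with library totals alone, under both other low-count filters, and by the DESeq2 Wald test and limma-voom.

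Of 504 single-gene values under 12 settings, 432 kept direction and call, 43 lost the call, 16 gained it and 13 reversed, all 13 in members not called. With library totals alone Il2ra, Il27ra, Il17rc and Il34 were at 0, 0.04, 0.1 and 0.21. Under limma-voom Il12rb1, Il4i1 and Il16 were at -0.4, -0.27 and -0.11. Leaving out each heart in turn, Il2ra ran from -0.94 to 0.41 (positive without young heart 3), Il12rb1 from -1.11 to 0.64 (negative without aged heart 3, and -0.1 without young heart 3), Il16 from -0.23 (without aged heart 3) to 0.31, Il4i1 from -0.21 (without aged heart 4) to 0.42, and Il23a from -0.33 (without aged heart 7) to 1.05. The cause was not tested. No paired analysis was possible because the groups share 1 replicate number. Of the 27 members below the filter, 18 were tested by edgeR without it and 0 had an unadjusted p under 0.05, and the other 9 had 0 reads.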
